A study of Mus musculus with 8 samples.

Results

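The promoters of non-coding genes in mouse cortical microglia were 1002 open-chromatin peaks of 104981 in all. They were chosen as peaks whose annotation began with promoter-TSS and whose gene type was anything but protein-coding. The gene types were ncRNA (931 peaks), pseudo (52), snoRNA (17) and snRNA (2), and the peaks were assigned to 826 genes. The other 14625 of 15627 promoter-TSS peaks belonged to protein-coding genes and served as the comparison.

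Open chromatin was measured by ATAC-seq, which marks accessible DNA by transposase insertion, in microglia sorted from the cortex of 8 mice aged 30 days. Both groups were injected on one side into a cerebral ventricle and killed after 4 hours: 4 mice received the interleukin-1 family cytokine interleukin-33 (IL-33) and 4 received vehicle. Each group held 2 females, no strain or genetic change was named in the labels, and cells were collected on ice by Percoll gradient and flow cytometry. The labels name each sample as a separate mouse, while the data columns name only the group. Levels are tags (sequenced fragments counted in a peak through the reads of their ends) scaled to 10000000 per library. A single read was worth 0.114 to 0.139 scaled tags, and the libraries held 35842688 to 43857673 tags. Values of single libraries are listed in the order of library number, 1 to 4, within each group.

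Long non-coding RNAs are transcribed and processed much like messenger RNAs but are not translated. Many begin at a promoter that also starts a coding gene in the other direction. MicroRNAs are cut from hairpins within longer host transcripts, so the start of a microRNA gene in an annotation is the start of its hairpin and need not be where transcription begins. Small nucleolar RNAs (snoRNAs), which guide the chemical modification of ribosomal RNA, mostly sit in introns of host genes. In macrophages, inflammatory signals are known to induce the host gene of miR-155, and several long non-coding RNAs restrain or promote cytokine genes.

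The sequences on which the results turn are shown here, read from RefSeq on build GRCm38.p6 (mm10). Of the 1002 peaks, 649 belonged to 525 genes with an entry in the RefSeq promoter table, and in 450 of them the entry of 300 bases (250 before to 50 after the start) overlapped the peak. Of the 118 microRNA genes with a peak, 107 were in the RefSeq microRNA table. The first set gives promoters of raised and lowered genes described below. Capitals mark matches on either strand to the motifs searched, which here were AP-1 (TGANTCA) and CCAAT, the latter read as ATTGG on the other strand. Dnmt3aos (chr12:3862195-3862494, minus strand) and Ttc39aos1 (chr4:109406208-109406507, minus strand) are raised promoters with an AP-1 match, Mir155hg (chr16:84712773-84713072, plus strand) is the microRNA host with the largest rise, and F630206G17Rik (chr11:45807833-45808132, plus strand) is the largest fall.
Dnmt3aos: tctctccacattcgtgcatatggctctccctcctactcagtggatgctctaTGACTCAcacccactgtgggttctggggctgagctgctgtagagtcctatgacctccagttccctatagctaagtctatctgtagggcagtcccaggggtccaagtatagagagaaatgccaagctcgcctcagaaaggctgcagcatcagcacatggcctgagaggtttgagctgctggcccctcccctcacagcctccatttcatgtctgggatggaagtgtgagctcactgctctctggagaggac
Ttc39aos1: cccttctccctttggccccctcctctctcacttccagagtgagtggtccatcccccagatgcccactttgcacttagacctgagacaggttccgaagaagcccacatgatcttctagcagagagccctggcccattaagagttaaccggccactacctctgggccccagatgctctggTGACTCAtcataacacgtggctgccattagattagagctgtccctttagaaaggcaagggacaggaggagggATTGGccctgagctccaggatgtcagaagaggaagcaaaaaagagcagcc
Mir155hg: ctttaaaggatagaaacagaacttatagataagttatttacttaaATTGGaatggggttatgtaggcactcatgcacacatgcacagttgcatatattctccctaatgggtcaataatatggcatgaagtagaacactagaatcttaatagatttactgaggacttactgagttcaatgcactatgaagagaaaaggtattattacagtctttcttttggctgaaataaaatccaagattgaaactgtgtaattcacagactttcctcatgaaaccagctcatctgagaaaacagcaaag
F630206G17Rik: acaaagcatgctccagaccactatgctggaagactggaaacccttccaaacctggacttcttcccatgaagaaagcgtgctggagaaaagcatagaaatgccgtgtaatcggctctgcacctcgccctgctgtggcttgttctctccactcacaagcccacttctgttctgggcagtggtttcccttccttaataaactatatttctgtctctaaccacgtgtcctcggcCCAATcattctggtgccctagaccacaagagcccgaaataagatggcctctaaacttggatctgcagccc

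The second set gives the mature microRNAs of the microRNA genes whose peaks were raised, and of Mir155, with the seed (bases 2 to 8, the part that pairs with target messages) in capitals. The 13 sequences of 7 genes held 13 different seeds, so no seed was shared among them.
miR-155-5p: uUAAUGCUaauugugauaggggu
miR-155-3p: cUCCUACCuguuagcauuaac
miR-425-5p: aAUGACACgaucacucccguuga
miR-425-3p: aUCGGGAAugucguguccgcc
miR-421-5p: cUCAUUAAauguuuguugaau
miR-6546-5p: aGGCGCCUcugagcuugugcuugu
miR-6546-3p: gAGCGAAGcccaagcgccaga
miR-22-5p: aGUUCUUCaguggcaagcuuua
miR-22-3p: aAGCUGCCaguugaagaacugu
miR-17-5p: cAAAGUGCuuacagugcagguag
miR-17-3p: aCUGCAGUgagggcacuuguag
miR-199a-5p: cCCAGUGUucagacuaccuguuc
miR-199a-3p: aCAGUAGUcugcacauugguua

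The share of a library's tags that fell in peaks was 20.8% to 27.9% in vehicle and 14.2% to 31.3% in IL-33, lowest in IL-33 library 2, and the median level of a non-coding promoter followed it (20.3 to 25.8 tags in vehicle, 13.4 to 29.1 in IL-33). Of the tags in peaks, non-coding promoters held 1.72% to 1.76% in the vehicle libraries and 1.57% to 1.71% in the IL-33 libraries, and the groups did not overlap. Protein-coding promoters showed the same order, 35.3% to 36.2% against 31.8% to 34.6%. As a check of the cell type, 8 of 10 microglial marker genes had a promoter peak, with a median level of 64.4 tags and summed levels of 449 to 648 in vehicle and 260.1 to 595 in IL-33. Of these 8, the promoter of Siglech, a microglial lectin gene, was lowered, from 115 ± 16.8 to 45.6 ± 20.6 tags (SD, n = 4 each; log2 change -1.42, adjusted p = 0.000488 in limma), and the other 7 did not pass. Border macrophage markers had a promoter peak for 2 of 5 genes (sums 21.9 to 42.0 and 13.8 to 51.4), monocyte and neutrophil markers for 1 of 5 (2.11 to 6.50 and 2.59 to 7.78) and lymphocyte markers for 0 of 4. Neuronal (1 of 6; 8.65 to 12.8 and 5.22 to 16.7), astrocyte (2 of 5; 16.8 to 30.5 and 6.96 to 36.0), oligodendrocyte lineage (2 of 6; 23.4 to 33.7 and 17.9 to 41.8) and endothelial markers (2 of 3; 16.6 to 24.6 and 11.8 to 22.1) were low, and the part of other cells in any result was not tested. In bulk libraries, fewer cells with an open site and less access per cell cannot be told apart.

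The labelled gene type could be checked against RefSeq. Of the 1002 peaks, 775 belonged to lncRNA genes, 139 to microRNA, 52 to transcribed pseudogenes and 17 to snoRNA, while 6 peaks of 6 genes were protein-coding in RefSeq and none of those 6 passed the test below. The promoters were of ordinary size, with a median length of 272 bp against 270 bp at protein-coding promoters. Their centres lay farther from the assigned start, at a median of 128 bp against 73 bp. They were also weaker: the median level over all 8 libraries was 25.3 tags at the non-coding and 50.5 at the protein-coding promoters tested. For 353 of them a coding start lay within 1 kb or the annotation itself named a coding transcript, and these are called promoters near a coding start. The other 649 lay away from one, as far as the RefSeq promoter table shows, which holds starts for 17491 of 21896 coding genes. Median vehicle levels were 51.3 tags near and 18.4 tags away from a coding start.

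After IL-33, 47 non-coding promoters of 46 genes were raised and 21 were lowered, of 963 with levels high enough to test (limma on log2 tags, Benjamini-Hochberg over all peaks, adjusted p under 0.05). That is 4.88% and 2.18%, below the background of all peaks, of which 8.53% were raised and 4.99% lowered, and above the background of protein-coding promoters, of which 2.29% were raised and 1.21% lowered. The remaining 895 did not pass. Raised peaks were centred at a median of 300 bp from the assigned start, lowered ones at 70 bp and all tested at 119 bp. Of the 587 tested promoters centred within 200 bp of a start, 18 were raised (3.07%) and 16 lowered (2.73%). There the share raised was nearer that of protein-coding promoters, which were not cut to this distance. The median log2 change was -0.19 at non-coding promoters, -0.22 at protein-coding promoters and -0.14 at all peaks. In 54 promoters every IL-33 library lay above every vehicle library and in 48 every one lay below, 5.61% and 4.98% of those tested, against 8.06% and 5.89% of all peaks and 2.6% and 2.4% of protein-coding promoters. Without IL-33 library 2, the one with the fewest tags in peaks, 80 were raised and the median log2 change was 0.01. The raised count was 31 without vehicle library 3 and 31 without IL-33 library 1. The lowered count was 8, 11 and 9 without vehicle libraries 1, 2 and 4, 7 without IL-33 library 3 and 36 without IL-33 library 4. When libraries were scaled by their median ratio in place of total tags, 86 were raised and 80 lowered, so that raised promoters were 51.8% of those called in place of 69.1%. In that scaling 8.93% and 8.31% of non-coding promoters were raised and lowered, against 5.30% and 6.03% of protein-coding promoters and 15.3% and 10.8% of all peaks. Other ways of scaling moved the median log2 change of all peaks from -0.14 to as high as -0.01, and the median of non-coding promoters relative to it stayed between -0.06 and 0.01 over all settings tried.

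**Figure D1:**
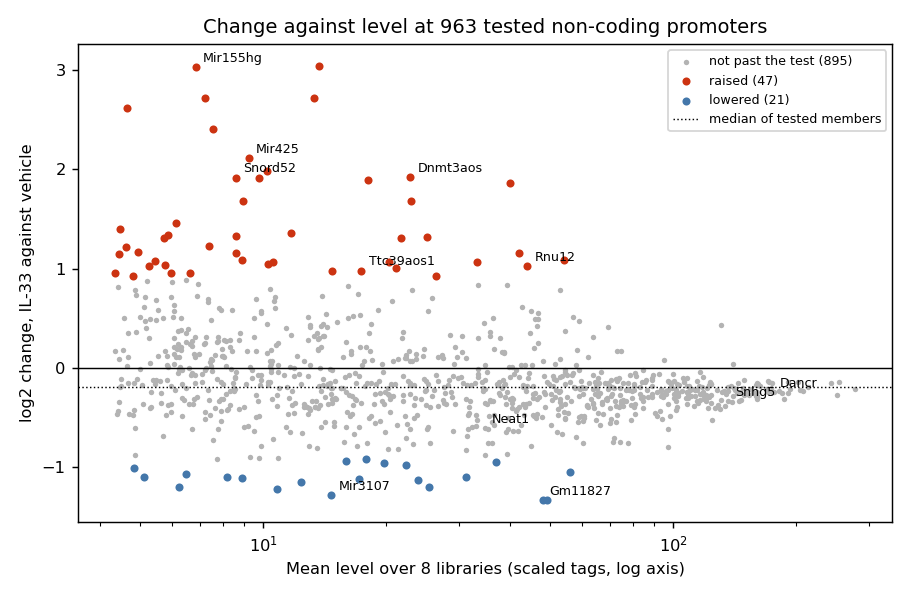
Each point is 1 of the 963 tested non-coding promoters, placed by its mean level over 8 libraries (x axis, scaled tags, log axis) and its log2 change between the 4 IL-33 and 4 vehicle libraries (y axis). The 47 raised promoters (red) and 21 lowered promoters (blue) lie mostly at low levels, and none of the 119 promoters at 100 tags or more passed in limma.

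Rises were mostly at weak promoters. The raised promoters had a median vehicle level of 3.72 tags, and 27 of 47 had a vehicle mean under 5 tags. The median vehicle level of the lowered promoters was 23.5 tags, beside 26.6 at all tested. A promoter was tested only if its mean over both groups was above 4.30 tags, so a raised promoter could have little vehicle signal and a lowered one could not, and the 2 levels are not compared. Among promoters with a mean level under 10 tags, 26 of 236 were raised and 6 lowered. From 10 to 30 tags the counts were 16 and 10 of 277, from 30 to 100 tags 5 and 5 of 331, and at 100 tags or more 0 and 0 of 119. At that level every one of the 119 lay between -0.52 and 0.43 on the log2 scale, although edgeR with TMM called 1 raised and 17 lowered there and DESeq2 1 and 18. Protein-coding promoters showed a like dependence on level, with 7.68%, 4.17%, 0.88% and 0.11% raised over the same ranges. The 47 raised promoters had log2 changes of 0.93 to 3.04, 40 of them at least 1, and the 21 lowered ones of -0.92 to -1.33. limma gave every log2 change the same standard error (0.34), so a call was a cut on its size, whatever the spread at the promoter. The part of this in the dependence on level was not tested. The promoter that passed with the largest p was 1700016A09Rik, and A930024E05Rik was the first that did not (adjusted p = 0.0487 and 0.0501).

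Promoters away from a coding start held most of the calls in limma. There 38 of 618 were raised (6.15%) and 20 lowered (3.24%), while near a coding start 9 of 345 were raised (2.61%) and 1 was lowered (0.29%), beside 8.53% and 4.99% of all peaks. The median log2 changes were -0.17 and -0.22. Promoters near a coding start were also stronger. Below 10 tags, 22 of 185 promoters away from a coding start and 4 of 51 near one were raised, and from 10 to 30 tags 12 of 201 and 4 of 76. The difference between the 2 kinds was not tested. The gap in falls depended on the scaling and tool. With median-ratio scaling 10.7% away from and 5.80% near a coding start were raised and 9.39% and 6.38% lowered. With edgeR and TMM 14.2% and 7.54% were raised and 12.1% and 12.5% lowered, and with DESeq2 14.4% and 7.54% were raised and 13.3% of each lowered.

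**Figure D2:**
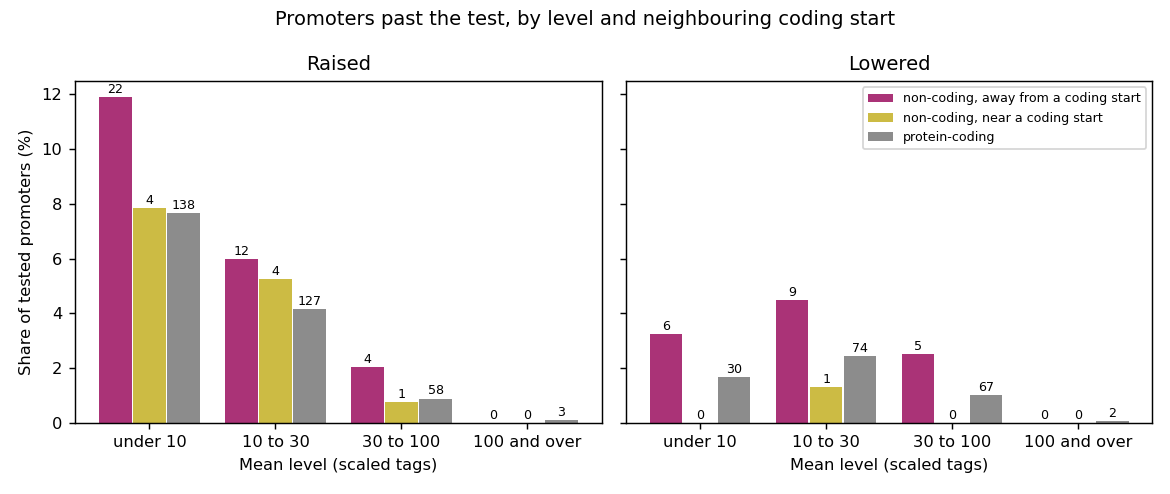
Bars give the share of tested promoters (y axis, %) that were raised (left) or lowered (right) in each range of mean level (x axis, scaled tags), with the number of promoters above each bar. The share falls as level rises in all 3 kinds of promoter for rises, and non-coding promoters away from a coding start have the tallest bar in each range under 100 tags.

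The largest rise was at 2210414B05Rik (chr4:3656409-3656633), a long non-coding RNA gene on chromosome 4 whose peak lay 21.5 kb from Lyn, the gene of a Src family kinase. Its levels were 2.43, 2.51, 1.03 and 1.81 tags in the vehicle libraries and 32.4, 14.6, 19.1 and 35.6 in the IL-33 libraries. Every IL-33 library stood far above every vehicle library, and the mean went from 1.95 ± 0.686 to 25.4 ± 10.1 (SD, n = 4 each; log2 change 3.04, adjusted p = 6.94e-17; the standard error of every log2 change was 0.34). A second non-coding gene at the same kinase, 6330407A03Rik, has its start inside Lyn (chr4:3714755-3715344) and was picked out after its values were seen. It had levels of 5.88, 1.98, 1.37 and 2.65 tags in the vehicle libraries and 9.05, 6.72, 6.88 and 11.3 in the IL-33 libraries, again without overlap (log2 change 1.31, adjusted p = 0.00168). Of the 19 other peaks tested within 25 kb of the 6330407A03Rik promoter, 10 were raised.

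Mir155hg, the host gene of miR-155, a microRNA with known roles in macrophage activation, had almost no signal in vehicle. Its promoter peak (chr16:84713182-84713406) held 0.26, 0, 0.57 and 1.12 tags in the vehicle libraries and 19.2, 8.96, 5.6 and 19.1 in the IL-33 libraries. Vehicle library 2 was at 0, and the lowest IL-33 library was still above the highest vehicle library. The mean went from 0.487 ± 0.482 to 13.2 ± 7.01 (log2 change 3.03, adjusted p = 1.07e-16), a ratio of means of 27.2. The peak lay 271 bp downstream of the annotated start, 110 bp beyond the end of the promoter sequence shown above and 737 bp before the first base of miR-155-5p. Of 6 other peaks tested within 25 kb, 3 were raised.

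Other large rises were at peaks assigned to uncharacterised genes. At 4930405A21Rik, Gm5577 and Gm14023 the annotation of the peak named a coding transcript, so those rises cannot be given to the non-coding gene alone. Gm32688 (chr10:93316936-93317211), whose peak lay 5.9 kb from the ETS factor gene Elk3, had 2.17, 2.77, 1.25 and 3.77 tags in the vehicle libraries and 29.4, 12.6, 16.6 and 38.03 in the IL-33 libraries (log2 change 2.72, adjusted p = 1.47e-13). For 4930405A21Rik (chr2:156719987-156720267), inside Dlgap4, the levels were 1.02, 0.92, 2.17 and 0.28 tags in the vehicle libraries and 14.2, 11.7, 9.3 and 18.4 in the IL-33 libraries (log2 change 2.72, adjusted p = 1.66e-13). Gm15987 (chr6:128974909-128975129), inside the lectin gene Clec2g, had 0.13, 0.66, 0.68 and 0 tags in the vehicle libraries and 9.69, 3.54, 7.26 and 15.2 in the IL-33 libraries (log2 change 2.62, adjusted p = 1.41e-12). In all 3 the groups were well apart, and the lowest IL-33 library was IL-33 library 2 or 3. Gm5577 (chr6:87982114-87982339), whose peak lay 744 bp from the linker histone gene H1f10, had means of 1.505 and 13.6 tags (log2 change 2.41, adjusted p = 1.10e-10). Gm14023 (chr2:129297806-129298022) has its peak 686 bp from Ckap2l, in the interleukin-1 gene region of chromosome 2. It had 3.2, 3.83, 2.17 and 4.18 tags in the vehicle libraries and 26.9, 14.5, 12.2 and 14.7 in the IL-33 libraries, highest in IL-33 library 1 (log2 change 1.98, adjusted p = 2.32e-07), and 11 of 17 other peaks tested within 25 kb were raised. All 10 of the largest rises had groups that did not overlap and passed the test under every other setting that tested them. Gm15987 had no test under the filter on the lowest 25% of levels. The authors listed 9 of the 10 for IL-33 only, the exception being Dnmt3aos. Those 9 had vehicle means under 4.30 tags, so they entered the test only through their IL-33 levels. The 10 were picked for the size of their change in these libraries, so none of this is separate support.

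**Figure D3:**
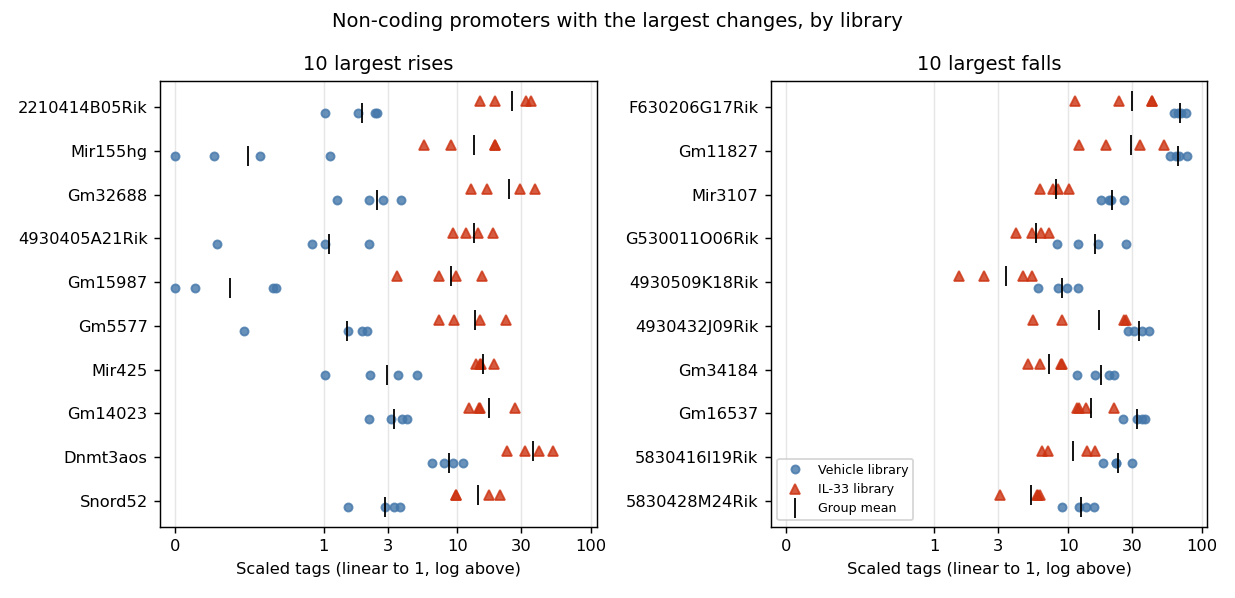
Scaled tags (x axis, linear up to 1 and log above) in each of the 4 vehicle libraries (blue circles) and 4 IL-33 libraries (red triangles) at the 10 non-coding promoters with the largest rises (left) and falls (right), with group means as black bars. In every one of the 20 the libraries of the 2 groups are apart, and the falls span a smaller fold than the rises. The 20 were picked for the size of their change in these libraries. Of all peaks tested, 8.06% had every IL-33 library above every vehicle library and 5.89% every one below.

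Long non-coding RNA genes known from work on immunity and stress were listed by name, and 7 of the 10 listed had 10 promoter peaks between them, 3 of them raised in limma (30%, beside 8.53% of all peaks) and 5 each in edgeR with TMM and in DESeq2. The list was made with earlier results of these data known, so these shares only describe its peaks. Dnmt3aos, antisense to the DNA methyltransferase gene Dnmt3a (chr12:3862257-3862528), had 11, 9.25, 7.98 and 6.42 tags in the vehicle libraries and 40.9, 23.3, 32.2 and 51.6 in the IL-33 libraries. The groups were apart and the mean rose from 8.66 ± 1.94 to 37.02 ± 12.1 (log2 change 1.92, adjusted p = 5.68e-07). Pvt1, which lies beside Myc, had 3 start-site peaks. The one at chr15:62039032-62039338 had 7.16, 7.4, 4.1 and 8.65 tags in the vehicle libraries and 36.7, 17.6, 23.4 and 39.3 in the IL-33 libraries, all IL-33 libraries above all vehicle libraries (log2 change 1.90, adjusted p = 8.61e-07). The strongest of the 3 (chr15:62037901-62038122) had 36.97, 37.6, 28.4 and 36.4 tags in the vehicle libraries and 42.3, 19.2, 36.4 and 43.4 in the IL-33 libraries, with a log2 change of -0.04 (adjusted p = 0.963). The third (chr15:62038423-62038708) had means of 9.96 and 9.49 tags (log2 change -0.07), so 1 of 3 peaks of the same gene passed; the raised one and the third were named after their values were seen.

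Ttc39aos1, also known as lincRNA-EPS, restrains immune genes in mouse macrophages. Its promoter peak (chr4:109406107-109406431) had 15.2, 9.25, 5.13 and 16.3 tags in the vehicle libraries and 25.4, 13.3, 18.98 and 35.4 in the IL-33 libraries. The peak lay inside the coding gene Ttc39a and its annotation named a coding transcript, so a change there cannot be given to Ttc39aos1 alone. IL-33 library 2 fell within the vehicle range, and the mean rose from 11.5 ± 5.25 to 23.3 ± 9.46 (log2 change 0.98, adjusted p = 0.0316). That call was lost without vehicle libraries 2 or 3 or IL-33 libraries 1, 3 or 4, in turn with adjusted p = 0.120, 0.279, 0.0825, 0.0627 and 0.128. Ptgs2os2, known as lincRNA-Cox2, had an open promoter in both groups with 50.1, 46.2, 33.9 and 33.1 tags in the vehicle libraries and 58.8, 23.2, 45.98 and 82.9 in the IL-33 libraries. IL-33 libraries lay on both sides of the vehicle range, and it did not pass in limma (log2 change 0.25, adjusted p = 0.736). Neither did Trp53cor1 (lincRNA-p21; means 68.01 and 77.9), Lncpint (19.6 and 15.1) or Mirt1 (41.9 and 31.3). Ptgs2os2 and Trp53cor1 were called raised by edgeR with TMM (adjusted p = 0.0404 and 0.0167) and by DESeq2 (0.0435 and 0.0202). Ptgs2os, Mirt2 and AW112010 had no peak among the non-coding promoters. The median log2 change of the 10 peaks was 0.18, beside -0.14 at all peaks, and it stayed above that of all peaks under every setting, by 0.25 to 0.37.

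Peaks at microRNA genes numbered 138 in 118 genes, of which 130 were tested. Of these, 6 were raised (4.62%) and 1 was lowered (0.77%), below the 8.53% and 4.99% of all peaks. Their median log2 change was -0.14, the same as that of all peaks. Mir425, inside Dalrd3, had the largest rise (chr9:108568474-108568742): 1.02, 3.57, 5.02 and 2.23 tags in the vehicle libraries and 15.04, 13.7, 14.7 and 18.6 in the IL-33 libraries (log2 change 2.11, adjusted p = 2.57e-08). Its groups were apart, and its peak ended 47 bp before miR-425-5p. Mir421 (chrX:103572227-103572491) on chromosome X had 1.79, 3.7, 3.88 and 5.3 tags in the vehicle libraries and 17.1, 8.49, 13.2 and 18.1 in the IL-33 libraries, also apart (log2 change 1.68, adjusted p = 2.03e-05). Mir6546 (chr1:171065254-171065459), inside the Fc gamma receptor gene Fcgr3, rose from 6.12 ± 1.92 to 17.2 ± 3.36 (log2 change 1.36, adjusted p = 0.001001). Mir22 (chr11:75462936-75463158) rose from 4.07 ± 1.89 to 10.7 ± 3.49 (log2 change 1.22, adjusted p = 0.00398), a call lost without vehicle library 3 (adjusted p = 0.0842).

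Further raised peaks were at Mir17 and Mir199a-1. Mir17, first of the hairpins in the miR-17-92 cluster (chr14:115042775-115043017), had 4.86, 9.64, 2.74 and 7.67 tags in the vehicle libraries and 21.3, 6.01, 10.1 and 22.4 in the IL-33 libraries. IL-33 library 2 lay inside the vehicle range (log2 change 1.06, adjusted p = 0.0164), and the call was lost without vehicle library 1 or 3 or IL-33 library 1 or 4 (adjusted p = 0.0838, 0.181, 0.115 and 0.0894). Mir199a-1, in the dynamin gene Dnm2 (chr9:21496519-21497074), rose from 3.44 ± 1.304 to 8.07 ± 1.76 (log2 change 1.04, adjusted p = 0.0195), a call lost without vehicle library 1 (adjusted p = 0.216), without IL-33 library 1 (0.0514) and with a pseudocount of 5 (0.0848). The peak of Mir199a-1 covered miR-199a-5p and met miR-199a-3p only at its edge. The 1 lowered peak was at Mir3107 in the ankyrin gene Ank1 (chr8:23142492-23142973), with 17.6, 20.1, 21.1 and 26.1 tags in the vehicle libraries and 10.1, 6.13, 7.77 and 8.37 in the IL-33 libraries. The IL-33 libraries all lay below the vehicle libraries (log2 change -1.28, adjusted p = 0.002297), in every setting tried. The strongest peaks at microRNA genes did not pass in limma. Mirlet7i, a let-7 gene, had means of 206 and 181 tags, Mir8112 192 and 171, Mir1938 173 and 148, and Mir1945 175 and 147. Mir1945 was called lowered by edgeR with TMM and by DESeq2 (adjusted p = 0.0357 and 0.0245). The peaks of Mir8112, Mir1938 and Mir1945 were near a coding start, so their levels cannot be given to the microRNA genes alone. With median-ratio scaling 16 microRNA peaks were raised and 6 lowered, with edgeR and TMM 20 and 9, and with DESeq2 21 and 11; 14 were raised without IL-33 library 2, and 4 without vehicle library 1, vehicle library 3 or IL-33 library 1.

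For a pair of these microRNAs the start of the host transcript could be set beside the hairpin. The strongest start-site peak of Mir22hg (chr11:75461295-75461627), the host of miR-22, had 193, 201, 142 and 184 tags in the vehicle libraries and 191, 112, 153 and 174 in the IL-33 libraries. It overlapped between groups (log2 change -0.21, adjusted p = 0.7797), while the raised Mir22 peak farther along had means of only 4.07 and 10.7 tags. Ftx, the long non-coding host of Mir421, had a weak start-site peak (chrX:103623612-103623871) with 3.2, 3.96, 5.59 and 6.56 tags in the vehicle libraries and 9.05, 6.84, 7.01 and 6.09 in the IL-33 libraries that did not pass (log2 change 0.51, adjusted p = 0.388). Among 8 peaks of 6 microRNA host genes, Mir155hg was the only one past the test in limma as reported (12.5%, beside 8.53% of all peaks raised). A weaker Mir22hg peak was raised in edgeR with TMM and in DESeq2 (adjusted p = 0.0383 and 0.0328), and a Dleu2 peak was lowered with quantile normalization (0.0332). Dleu2, host of miR-15a and miR-16-1, had means of 82.1 and 62.7 tags, Mir99ahg 28.5 and 28.3, Mir9-3hg 7.39 and 8.51, and Mirc35hg 6.03 and 3.69.

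Small RNAs of splicing, ribosome assembly and other housekeeping tasks had 26 promoter peaks, and of 25 tested 5 were raised (20%, beside 8.53% of all peaks) and 0 lowered in limma, with a median log2 change of 0.41. DESeq2, quantile normalization and leaving out IL-33 library 4 each gave 1 lowered. Snord52, a snoRNA gene in the region of the Hspa1b heat shock gene on chromosome 17 (chr17:34950780-34951115), had 3.33, 3.7, 2.85 and 1.53 tags in the vehicle libraries and 17.2, 9.79, 9.68 and 20.7 in the IL-33 libraries. The groups were apart (log2 change 1.92, adjusted p = 6.46e-07). Rnu12, the U12 RNA of the minor spliceosome (chr15:83149535-83149893), had 29.3, 38.6, 22 and 24.7 tags in the vehicle libraries and 71.4, 40.1, 60.4 and 66.4 in the IL-33 libraries. Its lowest IL-33 library was just above its highest vehicle library (log2 change 1.03, adjusted p = 0.0221). The peak lay 336 bp from the coding gene Poldip3 and its annotation named a coding transcript, so the rise cannot be given to Rnu12 alone. The call at Rnu12 was lost without vehicle library 1, 3 or 4 or IL-33 library 1 or 3 (adjusted p = 0.0640, 0.0995, 0.0946, 0.0746 and 0.0769). Among the snoRNA genes raised from low levels were Snora41 in Eef1b2 (3.19 ± 1.93 to 7.695 ± 2.3; log2 change 1.08, adjusted p = 0.0141) and Snord12 (2.99 ± 1.11 to 6.64 ± 1.34; log2 change 0.93, adjusted p = 0.0448). Both of these calls were lost without vehicle library 1 (adjusted p = 0.124 and 0.125), IL-33 library 1 (0.0730 and 0.0976) or IL-33 library 3 (0.0531 and 0.160). Leaving out vehicle library 2 also ended the call at Snora41 (adjusted p = 0.0915), and leaving out vehicle library 3 or 4 that at Snord12 (0.0933 and 0.228). A pseudocount of 5 ended both (0.0864 and 0.158), and quantile normalization, the variance trend and edgeR on total tags ended that at Snord12 (0.0765, 0.0681 and 0.0693). The count of 5 was 1 without vehicle library 1, IL-33 library 1 or IL-33 library 3, 2 without vehicle library 4, 3 without vehicle library 3, 8 without IL-33 library 2, 2 with a pseudocount of 5, and 9, 8, 11, 12 and 12 with median-ratio scaling, quantile normalization, equal tags in peaks, edgeR with TMM and DESeq2. Without the lowest 25% of levels 19 were tested, 2 were raised and the median was 0.10. The median of the list stayed above that of all peaks under every setting, by 0.26 to 0.61. This list too was made with earlier results of these data known.

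The strong promoters of the same list overlapped between groups. Rmrp, the RNA of RNase MRP, had means of 121 and 115 tags, Rpph1, the RNA of RNase P, 136 and 120.3, and Snord104 85.3 and 75.6. The peaks of Rmrp and Rpph1 were near a coding start, and that of Snord104 was not. Host genes of snoRNAs were among the strongest non-coding promoters, with a median vehicle level of 79.6 tags. In limma 0 of 17 peaks passed in either direction, 0 at an unadjusted p under 0.05. Of all peaks 8.53% were raised and 4.99% lowered, and of protein-coding promoters 2.29% and 1.21%. edgeR with TMM and DESeq2 each called 1 lowered, Snhg5 (adjusted p = 0.0411 and 0.0320). Dancr had 179.8, 203, 162 and 196 tags in the vehicle libraries and 203, 92.1, 145 and 217 in the IL-33 libraries (log2 change -0.24, adjusted p = 0.74). Snhg5, Zfas1 and Snhg8 went the same way within their spread, with means of 148 and 124, 126 and 107, and 124 and 112 tags. Of the hosts named here, only Zfas1 had its peak near a coding start. Zfas1 carries Snord12, whose own peak was raised while the Zfas1 start had a log2 change of -0.26 (adjusted p = 0.723).

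**Figure D4:**
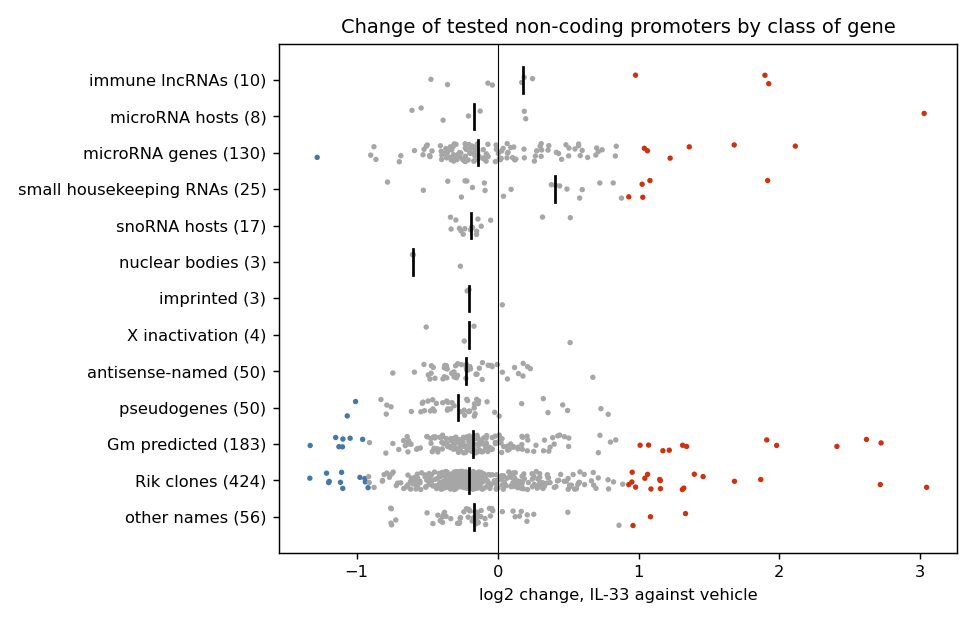
Log2 change between IL-33 and vehicle (x axis) of each tested non-coding promoter, grouped by class of gene with the number of tested peaks in brackets; red points were raised, blue points lowered, grey points did not pass, and black bars are class medians. Small housekeeping RNAs and immune lncRNAs have medians above 0 (0.41 and 0.18). SnoRNA hosts, nuclear bodies, imprinted genes, X inactivation genes and antisense-named genes hold no peak called in limma. With only 3 peaks of nuclear bodies, 3 of imprinted and 4 of X inactivation genes, 0 calls do not set these apart from all peaks (8.53% raised, 4.99% lowered).

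Classical long non-coding RNAs did not pass, but few of their peaks were tested: 3 of nuclear bodies, 3 of imprinted and 4 of X inactivation genes. Beside 8.53% raised and 4.99% lowered of all peaks, 0 calls in so few do not set them apart. Malat1, abundant in nuclear speckles, had 17.01, 18.1, 12.9 and 15.6 tags in the vehicle libraries and 17.1, 16.4, 9.55 and 10.4 in the IL-33 libraries, with overlapping groups (log2 change -0.26, adjusted p = 0.718). Neat1, the scaffold of paraspeckles, had 39.9, 49.7, 32.7 and 46.2 tags in the vehicle libraries and 21.5, 27.9, 32.99 and 26.6 in the IL-33 libraries. Only IL-33 library 3 reached the vehicle range (log2 change -0.60, adjusted p = 0.276). Of 5 genes of X inactivation, 4 had a promoter peak: Jpx (means 73.1 and 66.9), Firre (51.5 and 40.9) and Ftx did not pass. Both Xist peaks were below the level needed for the test. The Xist peak 16 bp before the start had 0, 0.26, 7.98 and 11.9 tags in the vehicle libraries and 4.72, 4.48, 1.02 and 0 in the IL-33 libraries. Vehicle libraries 3 and 4 and IL-33 libraries 1 and 2 thus stood above the others of their group, and each group held 2 females. Data columns are not tied to mice, and whether this split follows sex was not tested, here or at other promoters on chromosome X. Imprinted genes with a peak were 3 of 9 listed: Kcnq1ot1 (means 97.99 and 89.2), Nespas (16.6 and 18.1) and Peg13 (15.9 and 15.1), none past the test. Among genes named as opposite-strand transcripts, 0 of 50 tested peaks passed in either direction in limma. Shares raised and lowered were 8.53% and 4.99% of all peaks but 2.29% and 1.21% of protein-coding promoters. The 50 peaks had a median vehicle level of 53.7 tags. Non-coding promoters at 30 to 100 tags had 1.51% raised and 1.51% lowered, so a count of 0 does not set the 50 apart. At an unadjusted p under 0.05, 2 of the 50 passed, and under another setting at most 9 were lowered and 1 raised. The strongest promoters of the opposite-strand genes, Smc2os, Zbtb11os1, Cep83os and Fam120aos, stood at vehicle means of 172, 143, 129 and 116 tags and IL-33 means of 147, 114, 109 and 116. All of these were near a coding start.

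The largest falls were at uncharacterised genes, apart from Mir3107. F630206G17Rik (chr11:45807962-45808205) on chromosome 11 had 76.8, 70.3, 61.9 and 65.98 tags in the vehicle libraries and 42.2, 11.3, 23.8 and 42.2 in the IL-33 libraries. Every IL-33 library lay below every vehicle library (log2 change -1.33, adjusted p = 0.00134), and the mean was 2.3 times as high in vehicle. Gm11827 (chr4:11123582-11123916), whose peak lay 32.7 kb from Trp53inp1, had 77.01, 64.1, 58.03 and 67.1 tags in the vehicle libraries and 34.5, 12.03, 19.4 and 52.2 in the IL-33 libraries (log2 change -1.33, adjusted p = 0.00138). Both were lowest in IL-33 library 2, and both passed under every other setting, as did Mir3107; these were the 3 of 21 falls that did. G530011O06Rik (chrX:169979153-169979362), at the Mid1 gene on chromosome X, had 8.19, 26.9, 11.9 and 16.6 tags in the vehicle libraries and 6.25, 7.19, 5.35 and 4.06 in the IL-33 libraries (log2 change -1.21, adjusted p = 0.00438). It was lost without vehicle library 2 (adjusted p = 0.114), with median-ratio scaling (0.0559) and with equal tags in peaks (0.0623).

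The other falls among the largest 10 were 4930509K18Rik, 4930432J09Rik, Gm34184, Gm16537, 5830416I19Rik and 5830428M24Rik, with log2 changes of -1.20, -1.19, -1.15, -1.13, -1.11 and -1.11. The groups did not overlap at any of the 6. At 4930432J09Rik the IL-33 libraries themselves were split, with 26.3, 5.42, 9.04 and 27.3 tags against 30.96, 40.2, 27.9 and 35.99 in vehicle. Each of the 6 calls was lost without at least 1 library, the values being adjusted p = 0.0523 without vehicle library 4 at 4930509K18Rik, 0.0573 without IL-33 library 2 at 4930432J09Rik (0.0563 also in edgeR on total tags), 0.0552 without vehicle library 1 at Gm34184 and 0.0502 at Gm16537, 0.0866 at 5830416I19Rik and 0.0807 at 5830428M24Rik without the same library. IL-33 library 3 had a like effect on 5 of them, with adjusted p from 0.0615 to 0.0960, vehicle library 2 on Gm34184 (0.0668) and vehicle library 4 on Gm16537 (0.0552) and 5830428M24Rik (0.0533). Pseudogene promoters held 2 falls and 0 rises in 50 tested in limma (10 and 4 in DESeq2), beside 4.99% lowered and 8.53% raised of all peaks in limma. Reads of a pseudogene can belong to its parent gene.

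Several genes had more than 1 start-site peak. Of 152 genes with more than 1 tested peak, 14 had a raised peak, and in 13 of the 14 another peak of the gene did not pass. The exception was D730005E14Rik, a gene at Apobec3 named after its values were seen, where both peaks were raised (log2 change 0.98, adjusted p = 0.0316 and log2 change 1.15, adjusted p = 0.00786), although each call was lost when 1 of several libraries was left out, for both peaks without vehicle library 4 (adjusted p = 0.0626 and 0.255) or IL-33 library 3 (0.0544 and 0.0789). The second of these peaks was also lost with median-ratio scaling (0.0963), quantile normalization (0.186), equal tags in peaks (0.0984) and a pseudocount of 5 (0.115). In the test as reported, no gene had both a raised and a lowered peak. Gm45928 at the cytokine gene Clcf1 came nearest, also picked after its values were seen. The annotation of both its peaks named a coding transcript, so neither change can be given to Gm45928 alone. Its upstream peak (chr19:4213437-4213729) had 16.8, 11.6, 8.55 and 14.1 tags in the vehicle libraries and 30.5, 19.9, 26.5 and 34.7 in the IL-33 libraries (log2 change 1.07, adjusted p = 0.0153), and was lost without vehicle libraries 2 or 3 (adjusted p = 0.0623 and 0.102). Its start-site peak (chr19:4214038-4214337), 0.3 kb on, had 11.3, 15.2, 9.92 and 16.04 tags in the vehicle libraries and 5.23, 7.43, 7.77 and 5.2 in the IL-33 libraries, every IL-33 library below every vehicle library, and just missed the threshold (log2 change -0.91, adjusted p = 0.0522).

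Raised promoters stood more often beside other raised peaks. Within 25 kb, 28 of 47 raised promoters (59.6%) had at least 1 other raised peak, against 270 of 895 that did not pass (30.2%) and 4 of 21 lowered ones (19%). Raised promoters also had more tested peaks around them, a median of 9 against 6. As a share of the neighbouring peaks themselves, 19.7% were raised beside raised promoters, 7.99% beside those that did not pass and 3.55% beside lowered ones. Lowered peaks were 1.74%, 2.72% and 7.09% of the neighbours in the same order. These neighbours come from the same libraries, so the shares are given as a description.

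The sequence windows of raised promoters were poorer in CpG than those of promoters that did not pass, and close to lncRNA promoters at large. Raised promoters were also weaker and more often away from a coding start, and the part of this was not tested. Where a RefSeq window overlapped the peak, the median GC content was 48.7% with 4.5 CpG per 300 bases in 18 raised promoters, 53.0% with 6.5 in 12 lowered promoters and 60.7% with 19 in 408 windows of promoters that did not pass. Over all promoters in the table it was 52.7% with 7, and over lncRNA promoters 48.3% with 4. The AP-1 letters (TGANTCA, bound by FOS and JUN family factors) were in 5 of 18 raised windows (27.8%), 1 of 12 lowered (8.33%), 27 of 408 that did not pass (6.62%) and 7.81% of all promoters. The CRE letters (TGACGTCA) were in 2 of 18 raised windows and 1.79% of all promoters, CCAAT in 7 of 18 and 37.4%, the C/EBP letters (TTGCNNAA) in 3 of 18 and 10.8%, and TATAAA in 1 of 18 and 13.6%. The ETS letters GAGGAAGT and the interferon element were each in 1 of 18 (3.20% and 3.44% of all promoters), and the NF-kB motif in 0 of 18 (1.63%). Each motif was searched on both strands, and a match is only a match of letters. In the 2 sequences shown, the AP-1 letters of Dnmt3aos began 199 bases and those of Ttc39aos1 72 bases before the start.

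Peaks that only 1 of the authors' group lists held were weak and hard to test. The authors listed 818 of the 1002 promoters in both groups, 128 for IL-33 only and 56 for vehicle only. Of the 128, 29 were too weak to test, 29 were raised and 70 did not pass; of the 56, 10 were too weak, 5 were lowered and 41 did not pass. Among the 818 in both lists, 18 were raised and 16 lowered. The lists and the levels come from the same libraries, so neither bears out the other. In all, 39 promoters of 38 genes, with means of 2.27 to 4.30 tags, were not tested. At the other end, Gm2093, Pisd-ps3, Gm15545, C630043F03Rik and 2900009J06Rik were the strongest non-coding promoters, with vehicle means of 295, 266, 253, 271 and 226 tags and IL-33 means of 263, 242, 233, 231 and 202, and all but Pisd-ps3, which is on an unplaced contig, lay within 258 bp of a coding gene.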

How the data were processed

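ATAC-seq signal of 4 vehicle and 4 IL-33 libraries was read from the authors' deposited peak table. Per the file headers, the authors counted tags in each peak with HOMER annotatePeaks on mm10 (at most 3 tags per position) and scaled the signal to 10000000 tags per library. The deposited score of each merged peak was not used in any test. Bowtie2, HOMER and DESeq2 appear without versions in the submitters' processing notes. Trimming, duplicate removal and any shift for the transposase are not given in the sources used here. Every value was a whole number of reads within 0.006 tags (100% of values), and 3 reads, 0.342 to 0.418 tags, were taken as the floor, which covers counting error only.

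The pseudocount before taking log2 was 1.15 tags, 10% of the median over peaks of the mean level (11.5 tags). A filter removed the 10501 peaks with the lowest 10% of mean levels, and 94480 were tested in limma 3.58.1 (R 4.3.3, two-sided, no trend, Benjamini-Hochberg over all peaks, threshold 0.05). Fold changes on this scale understate those of weak peaks. limma gave every peak the same standard error (0.34), so its p-values follow the log2 change alone and not the spread of the single peak. Very small p-values should not be read literally. The fit was tested on simulated data with the same dispersion at every peak, libraries that differed in depth only and changes at better-covered peaks only. That test does not cover weak peaks or libraries with unequal shares of tags in peaks.

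Non-coding promoters and the gene lists were chosen with earlier results of these data known. Named genes were the 10 largest rises and 10 largest falls past the threshold, 1 peak per gene, and the strongest peak of listed genes (for long lists, those past the test and the 4 strongest), with the 5 strongest promoters overall; exceptions are marked, and 1 snoRNA peak that the rule names is not reported here. The planned ranking of promoters by likeness to the most raised one was not made, because the libraries fall into 2 groups of 4. Data columns name the group and not the mouse, so sex could not be a term, and 0 other columns of sample values were set aside. Alternatives were other scalings, pseudocounts and filters, a variance trend, edgeR 4.0.16 and DESeq2 1.42.0 on the recovered counts, each library left out in turn, and promoters with a centre within 200 bp of the start.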

Additional observations from a re-analysis of the deposited data

Results flagged for a closer look

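In a group of 4 libraries, 1 library stood apart from the other 3 by more than Dixon's 95% limit in 9 of 166 groups looked at; chance gives about 1 in 20. IL-33 library 2 was low in 3 of them: 57.6 tags at Snord104 (others 80.5 to 83.4), 12.3 at Mir6546 (others 18.2 to 19.3) and 3.07 at 5830428M24Rik (others 5.86 to 6.12). Vehicle library 3 was low in 4: 159 tags at Mir8112 (others 199.9 to 208), 82.4 at Fam120aos (others 125 to 129.6), 28.4 at the strongest Pvt1 peak (others 36.4 to 37.6) and 167 at Mirlet7i (others 214 to 222). These were the libraries with the smallest share of tags in peaks in their groups, and their part in these values was not tested. IL-33 library 1 was high at Gm14023, with 26.9 tags (others 12.2 to 14.7), and vehicle library 1 was low at Mirc35hg, with 3.33 tags (others 6.87 to 6.97).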

How the results depend on the processing

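No result at a named promoter changed direction once called; over 78 tested promoters, 78 values lost their call under another setting, 16 gained one and 1378 kept their side of the threshold. Of the 47 rises and 21 falls, 18 and 3 passed in all 19 other fits, and 5 more rises passed in the 18 that tested them, being too weak for the filter on the lowest 25%. No paired analysis was possible because the mice of the 2 groups share no numbers and the data columns are not tied to mice. Raised and lowered counts at non-coding promoters were 86 and 80 with median-ratio scaling, 77 and 85 with quantile normalization, 93 and 76 with equal tags in peaks, 114 and 118 with edgeR and TMM, and 115 and 128 with DESeq2. At protein-coding promoters they were, in the same order, 756 and 860, 684 and 814, 788 and 811, 943 and 1562, and 979 and 1820, beside 326 and 173 as reported. At all peaks they were 14411 and 10226, 12782 and 12211, 14736 and 9809, 16132 and 11157, and 16542 and 12405, beside 8058 and 4714. Of the 47 rises, 44, 43, 44, 46 and 46 were raised under those 5 settings too, and of the 21 falls 19, 20, 19, 20 and 20 were lowered. Without 1 library, rises at non-coding promoters were 31 to 80 and falls 7 to 36, at protein-coding promoters 251 to 627 and 69 to 342, at all peaks 6306 to 13871 and 2472 to 7894, and the median log2 change of non-coding promoters was -0.30 to 0.01. With only the 587 tested promoters centred within 200 bp of a start, 18 were raised (3.07%) and 16 lowered (2.73%), beside 4.88% and 2.18% of all non-coding promoters tested. The cause of these moves was not tested. The other pseudocounts and filters, the variance trend and edgeR on total tags kept each of these counts within 1.5 times. Weak promoters rest on few reads, and 39 were too weak to test.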
